A study of Mus musculus with 16 samples.

Results

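The genes described here encode the enzymes, and 1 transporter, that set hepatic gluconeogenesis apart from glycolysis: Pcx, Pck1, Pck2, Fbp1, G6pc and Slc37a4. They were chosen by symbol, as the rows of the table whose Ensembl identifier carries one of these symbols in mouse GRCm38. All 6 were found among the 55487 genes of the table. Liver RNA was sequenced from 16 male C57BL6/J mice made obese by diet, with 4 mice in each of 4 groups and 1 library per mouse. Obesity was induced by food with 60% of its energy from fat. By the paper, mice were moved before dosing began to other high-fat food, with protein at a standard (SP) or a raised (HP) level. The paper gives no share of fat for the SP and HP diets. On each diet mice received vehicle or G108, a long-acting glucagon receptor agonist, injected under the skin once a day at 2.5 nmol/kg for 22 days. Mice were fasted for 4 h before the liver was taken. By the sample records mice were 10 weeks old at the start of 8 weeks of high-fat feeding and tissue was taken on day 25. The paper gives a younger age, a shorter period and an earlier day.

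Gluconeogenesis makes glucose from lactate, amino acids and glycerol, and in the fasted mammal it runs mainly in the liver, most strongly in hepatocytes near the portal vein. Most of its steps are glycolytic enzymes running in reverse, but the irreversible steps of glycolysis are bypassed by separate enzymes. Glucagon raises cAMP in hepatocytes, and the cAMP response factor CREB with its coactivators is a textbook activator of genes for these bypass enzymes, while insulin represses them.

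Of the 6 genes, Pck1, G6pc, Fbp1 and Pcx were called higher in mice given G108 on SP as measured by TPM, as were 77% of all genes tested. For Pck1 and G6pc the call held once the libraries were put on a common scale, but for each it was lost in 5 of 16 runs without 1 library. Fbp1 fell short on SP on that scale (log2 difference 1.37, adjusted p = 0.0706, limma). On that scale Pcx and Slc37a4 were not called on either diet. Their log2 differences there were -0.043 and -0.21 on SP, and -0.33 and -0.28 on HP. Pck2 was near the lower limit of expression in every mouse. On HP the differences for Pck1 and G6pc were 1.30 and 1.01 on the log2 scale and did not pass adjustment over all genes. None of the 5 genes tested differed between the diets by the same test. In bulk liver, fewer cells of a type and less RNA per cell cannot be told apart.

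Levels are in TPM, reads divided by exon length and expressed as a share of the library, so that a fall of very abundant transcripts raises the share of all others. Major urinary protein (Mup) genes took 42.6 to 49.7% of TPM with vehicle on SP, 35.7 to 44.9% with vehicle on HP, 18.3 to 23.0% with G108 on SP and 18.2 to 29.6% with G108 on HP. Genes of the mitochondrial genome took 13.8 to 24.0% in the first 3 of these groups and 21.0 to 37.3% with G108 on HP. The median difference of all 11839 genes tested was 0.60 on the log2 scale for G108 against vehicle on SP, 0.09 on HP, -0.35 for HP against SP with G108 and 0.14 for HP against SP with vehicle. Values are therefore also given on a common scale, with each library divided by its median ratio to the other libraries (median-of-ratios scaling). These 4 medians then lay between -0.0082 and 0.0015. The libraries held 33.4 to 45.03 M assigned reads with vehicle and 27.8 to 36.5 M with G108. All 10 hepatocyte markers had a mean above 1 TPM. So did 3 of 8 markers of fat, with group means of 381 to 554 TPM for Car3, 7.43 to 9.19 TPM for Adrb3 and 1.40 to 1.97 TPM for Cidec. Of 6 kidney markers Slc5a2 did (2.62 to 3.67 TPM) and of 5 intestine markers Fabp2 (43.8 to 62.6 TPM). The other markers of these 3 tissues had lower means, and Lep, Slc22a6 and Cdx1 were listed at 0 in every library.

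Of the 6 members 5 had a mean TPM above the minimum of 1. They were tested with limma on log2(TPM + 1), in 1 model of all 16 libraries, and calls were made at an adjusted p under 0.05 over all genes tested. For G108 against vehicle on SP 4 of the 5 were called higher, but so were 77% of all genes tested, so the count is near the background. On the common scale 2 of the 5 were called higher, against 1.33% of all genes. On HP none of the 5 was called by limma, against 1.11% of all genes in either direction as deposited and 1.22% after scaling. In that comparison 2 of the 5, Pck1 and G6pc, had an unadjusted p under 0.05 on both scales, against 11.9% of all genes as deposited and 11.3% after scaling, and voom on the recovered reads also made 0 calls. In both comparisons of HP with SP, and for the interaction, that is the difference of the response to G108 between diets, 0 of the 5 were called by limma or by voom, where limma called 0% of all genes. An unadjusted p under 0.05 was found there for 1 gene with vehicle (Pck1), 0 with G108 and 1 for the interaction (Fbp1), where 3.16%, 45% and 48% of all genes had one, so that the last 2 counts do not exceed the background. After scaling it was found for none of the 5, against 3.94%, 5.4% and 7.22% of all genes. In the test of any difference among the 4 groups 3 of the 5 were called, against 60.8% of all genes, and after scaling 2 of the 5, against 2.78%.

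**Figure D1:**
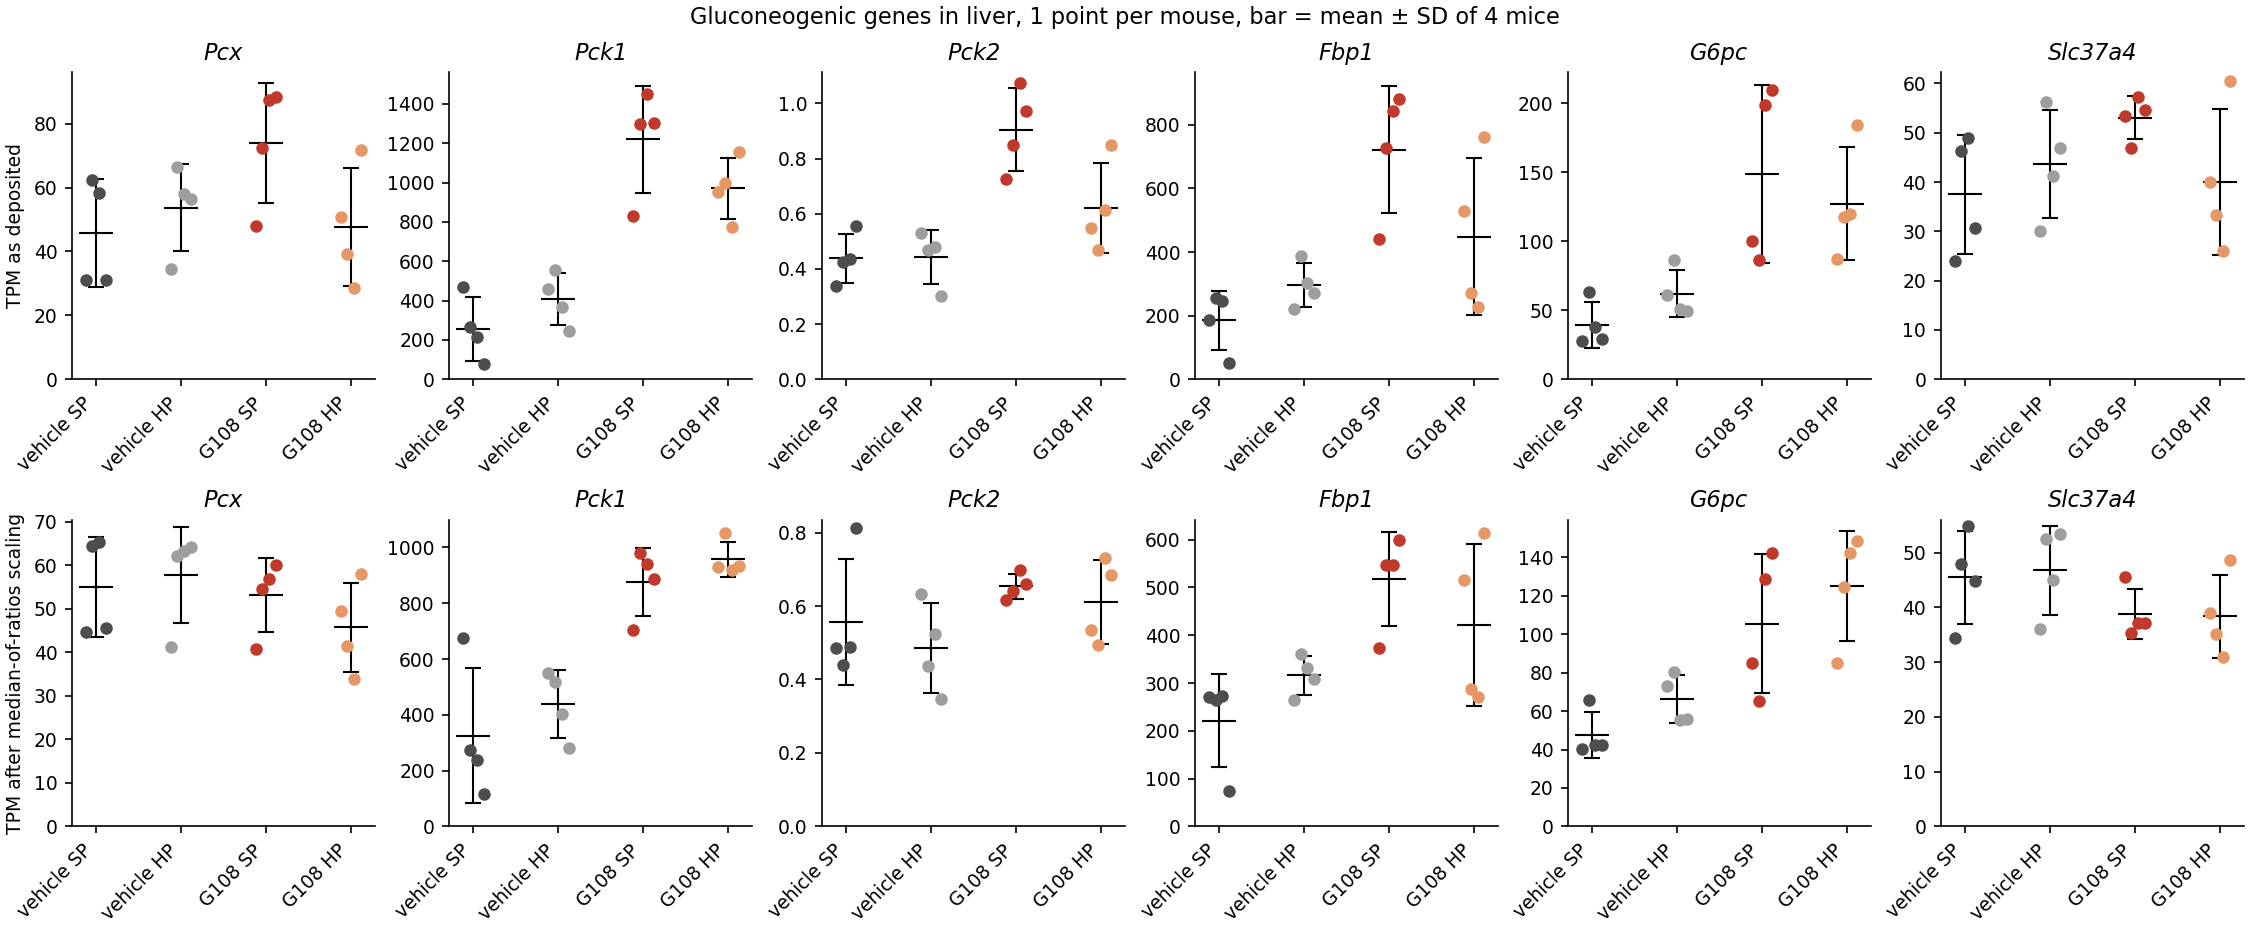
Each point is 1 mouse, the horizontal bar the mean and the whiskers the SD of 4 mice, with TPM as deposited in the upper row and after median-of-ratios scaling in the lower row, and each panel on its own axis starting at 0. On both scales the 4 mice given G108 lie above the 4 mice given vehicle for Pck1 and for Fbp1 on SP and for Pck1 and G6pc on HP, while Pcx and Slc37a4 overlap between groups in the lower row.

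Pcx (ENSMUSG00000024892, chr19:4510472-4621752, plus strand, GRCm38) encodes pyruvate carboxylase, the mitochondrial enzyme that makes oxaloacetate from pyruvate. Mice 1 to 4 had 31.0, 62.3, 58.2 and 31.1 TPM with vehicle on SP and 47.9, 72.4, 87.4 and 88.3 TPM with G108 on SP. On HP they had 34.4, 66.4, 57.9 and 56.3 TPM with vehicle and 50.7, 39.3, 28.6 and 71.8 TPM with G108. The groups overlapped in every comparison, and G108 mouse 3 on HP had the lowest level of all 16. As deposited, Pcx was higher with G108 on SP by 0.72 on the log2 scale (SE 0.31, adjusted p = 0.0465, limma), close to the median of all genes. This call was lost when any of 9 libraries was left out singly, most clearly vehicle SP mouse 1 (adjusted p = 0.141, limma), and with no filter on low values (adjusted p = 0.106, limma). After scaling the difference was -0.043 (95% CI -0.47 to 0.38) on SP and -0.33 (95% CI -0.76 to 0.09) on HP, and neither was called. Lrfn4 lies within the span of Pcx on the opposite strand with a mean of 0.854 TPM, and whether reads were counted by strand is not given in the sources used here.

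Pck1 (ENSMUSG00000027513, chr2:173153048-173159273, plus strand) encodes the cytosolic phosphoenolpyruvate carboxykinase, which turns oxaloacetate into phosphoenolpyruvate. The genes Pck1 and G6pc were the only members called after scaling, so the 250 bases upstream of the start site are shown for both, from RefSeq for GRCm38.p6 on the plus strand. Capitals mark a stretch that resembles the cAMP response element. Pck1 is shown at chr2:173152823-173153072 and G6pc at chr11:101367466-101367715.
Pck1: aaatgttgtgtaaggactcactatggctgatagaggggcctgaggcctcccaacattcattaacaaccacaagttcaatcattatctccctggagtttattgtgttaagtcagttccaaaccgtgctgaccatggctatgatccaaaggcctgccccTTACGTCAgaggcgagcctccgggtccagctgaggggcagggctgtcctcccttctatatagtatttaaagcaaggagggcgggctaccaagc
G6pc: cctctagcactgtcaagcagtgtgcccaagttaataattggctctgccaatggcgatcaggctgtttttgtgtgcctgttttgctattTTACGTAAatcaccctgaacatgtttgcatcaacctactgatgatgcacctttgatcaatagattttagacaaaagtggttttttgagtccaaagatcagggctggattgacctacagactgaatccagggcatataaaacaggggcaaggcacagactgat
The capitals begin 93 bases before the RefSeq start site in Pck1 (TTACGTCA) and 162 bases before it in G6pc (TTACGTAA). For both genes that site lies downstream of the start of the gene span given here. Part of each sequence shown therefore lies within that span. Both match TNACGTNA, a pattern set after these sequences were seen, which 4.49% of 32817 mouse promoter windows of the same design hold on either strand (250 bases before the start site and 50 after it). No window of Pcx, Pck2, Fbp1 or Slc37a4 held it. The full palindrome TGACGTCA was in no window of the 6 genes and in 1.79% of all windows. The shorter core TGACG, which overlaps the Pck1 stretch on the minus strand, was in windows of Pck1 and Slc37a4 and in 20.8% of all windows. The FOXO motif GTAAACA was in no window of the 6 genes and in 3.65% of all windows. These matches describe letters in a window and no binding was measured.

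Pck1 was the most abundant of the 6 genes in 14 of 16 libraries and stood at the 99.1 percentile of all genes tested by mean TPM. Mice 1 to 4 had 469, 264, 214 and 78.8 TPM with vehicle on SP and 827, 1299, 1449 and 1304 TPM with G108 on SP. On HP they had 460, 556, 368 and 246 TPM with vehicle and 954, 996, 774 and 1157 TPM with G108. Every mouse given G108 was above every mouse given vehicle on the same diet. On SP 56% of all genes tested were separated in this way as deposited, and 4.52% after scaling. The lowest mouse of all was vehicle SP mouse 4. On SP the mean rose from 256 ± 162 to 1220 ± 271 TPM (SD, n = 4), a 4.76-fold difference of means, or 2.69-fold after scaling. The log2 difference on SP was 2.47 (SE 0.40, adjusted p = 5.17e-04, limma) as deposited and 1.70 (SE 0.38, adjusted p = 0.0243, limma) after scaling. After scaling the adjusted p in limma was 0.0572 to 0.0813 without vehicle SP mouse 2 or 3 or G108 SP mouse 2, 3 or 4, each left out singly, with a difference of at least 1.64. Without vehicle SP mouse 4 the scaled difference was 1.30 and the call held (adjusted p = 0.0459, limma).

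On HP Pck1 averaged 407 ± 132 TPM with vehicle and 970 ± 157 TPM with G108 (SD, n = 4), a fold of 2.38 that was 2.19 after scaling. The log2 difference was 1.30 (95% CI 0.45 to 2.15, adjusted p = 0.160, limma) as deposited and 1.17 (95% CI 0.37 to 1.98, adjusted p = 0.190, limma) after scaling. It passed the threshold when vehicle SP mouse 4 was left out (adjusted p = 0.0302, limma), although that mouse is in neither group, through the shared estimate of the spread. The share of all genes whose mice given G108 all lay above those given vehicle on HP was 7.67% as deposited and 4.2% after scaling. For HP against SP, Pck1 differed by 0.86 with vehicle (adjusted p = 0.727, limma) and by -0.31 with G108 (adjusted p = 0.507, limma), and the latter was 0.14 after scaling. The interaction of G108 and diet was -1.18 (95% CI -2.38 to 0.03) as deposited and -0.53 (95% CI -1.66 to 0.61) after scaling, so a difference of the response between diets was not detectable. In rising order of scaled means, the groups were vehicle SP at 326, vehicle HP at 438, G108 SP at 877 and G108 HP at 958, with overlapping mice at the first step and the last. The coefficient of variation of TPM between mice was 63.1% with vehicle on SP and 16.2% with G108 on HP.

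Pck2 (ENSMUSG00000040618, chr14:55540266-55551242, plus strand) encodes the mitochondrial phosphoenolpyruvate carboxykinase. Its mean of 0.602 TPM was under the minimum of 1, and 63 to 182 reads were assigned to it per library. Mice 1 to 4 had 0.338, 0.425, 0.436 and 0.555 TPM with vehicle on SP and 0.725, 0.848, 1.07 and 0.972 TPM with G108 on SP. On HP they had 0.529, 0.468, 0.479 and 0.303 TPM with vehicle and 0.550, 0.469, 0.614 and 0.850 TPM with G108. The groups did not overlap on SP as deposited, as for 56% of all genes tested, and overlapped after scaling. With no filter on low values the difference on SP was 0.40 on the log2 scale (SE 0.09, adjusted p = 0.00501, limma), where 32.4% of 32076 genes were called higher. With the scaling added it was 0.09 (SE 0.08, adjusted p = 0.683, limma), an analysis added after the data were seen. Thus nearly all phosphoenolpyruvate carboxykinase transcripts in these livers were of the cytosolic form, with Pck1 at 142 to 2125 times the TPM of Pck2 in the same library.

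Fbp1 (ENSMUSG00000069805, chr13:62864753-62888282, minus strand) encodes fructose-1,6-bisphosphatase, which bypasses the phosphofructokinase step. Mice 1 to 4 had 188, 256, 245 and 51.3 TPM with vehicle on SP and 440, 726, 842 and 881 TPM with G108 on SP. On HP they had 221, 386, 303 and 270 TPM with vehicle and 530, 273, 229 and 762 TPM with G108. On SP the groups did not overlap on either scale, a separation that 56% of all genes tested showed as deposited and 4.52% after scaling. On HP mice 2 and 3 given G108 lay within the range of mice given vehicle and mice 1 and 4 above it. On SP the difference was 2.15 (SE 0.46, adjusted p = 0.00187, limma) as deposited. After scaling it was 1.37 (95% CI 0.57 to 2.17) and no longer passed (adjusted p = 0.0706, limma). Vehicle SP mouse 4 was far below the other 3 of its group, and without it the scaled difference was 0.91 (adjusted p = 0.0991, limma). On HP the difference was 0.46 (95% CI -0.53 to 1.45) as deposited and 0.34 (95% CI -0.46 to 1.13) after scaling.

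The interaction for Fbp1 was -1.69 (95% CI -3.08 to -0.29, adjusted p = 0.0806, limma) as deposited, the largest in size of the 5 genes. Without G108 HP mouse 4, G108 SP mouse 1 or vehicle SP mouse 2 it passed, with adjusted p between 0.0336 and 0.0481 in limma. Without G108 HP mouse 4 the interaction was called for 3 of the 5 members and for 43.9% of all genes, and HP against SP with G108 for 2 of the 5 and 42.6% of all genes. Without G108 SP mouse 1 or vehicle SP mouse 2 the interaction was called for 1 of the 5 members, Fbp1, and for 33.4% and 29.3% of all genes. After scaling the interaction for Fbp1 was -1.04 (adjusted p = 0.575, limma). By scaled means the order was vehicle SP (221), vehicle HP (316), G108 HP (422) and G108 SP (517). Each group overlapped with the next in this order.

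G6pc (ENSMUSG00000078650, chr11:101367561-101377903, plus strand) encodes the catalytic subunit of glucose-6-phosphatase, which releases free glucose in the endoplasmic reticulum. Mice 1 to 4 had 28.0, 63.5, 37.7 and 28.8 TPM with vehicle on SP and 100.2, 86.6, 199 and 209 TPM with G108 on SP. On HP they had 61.1, 86.2, 50.9 and 49.1 TPM with vehicle and 87.1, 118, 120 and 184 TPM with G108. No mouse given G108 was below a mouse given vehicle on the same diet, with a gap of less than 1 TPM between the nearest mice on HP. As deposited, 56% of all genes tested were separated in this way on SP and 7.67% on HP. After scaling the groups overlapped on SP by 1 mouse, since vehicle SP mouse 2 (65.7) was just above G108 SP mouse 2 (65.3). The difference on SP was 1.86 (SE 0.33, adjusted p = 8.31e-04, limma) as deposited and 1.09 (SE 0.25, adjusted p = 0.0296, limma) after scaling. After scaling the adjusted p in limma was 0.0624 to 0.118 without vehicle SP mouse 1, 3 or 4 or G108 SP mouse 3 or 4, each left out singly. On HP the difference was 1.01 (95% CI 0.31 to 1.72, adjusted p = 0.191, limma) as deposited and 0.89 (95% CI 0.35 to 1.43, adjusted p = 0.123, limma) after scaling. For HP against SP it was 0.68 with vehicle (adjusted p = 0.727, limma) and -0.17 with G108 (adjusted p = 0.669, limma), and the latter was 0.28 after scaling. The scaled means rose from vehicle SP at 47.6 to vehicle HP at 66.3, G108 SP at 105 and G108 HP at 125, and each group overlapped with the next.

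Slc37a4 (ENSMUSG00000032114, chr9:44396852-44402968, plus strand) encodes the transporter that carries glucose-6-phosphate to G6pc in the endoplasmic reticulum. Mice 1 to 4 had 23.9, 46.3, 49.0 and 30.7 TPM with vehicle on SP and 53.5, 46.9, 57.3 and 54.6 TPM with G108 on SP. On HP they had 30.1, 56.3, 41.2 and 46.8 TPM with vehicle and 40.0, 33.2, 26.1 and 60.4 TPM with G108. All groups overlapped, and the 4 mice given G108 on SP lay closest together. The difference on SP was 0.55 (95% CI -0.02 to 1.11, adjusted p = 0.0694, limma) as deposited, below the median of all genes, and -0.21 (95% CI -0.57 to 0.15) after scaling. On HP it was -0.16 (95% CI -0.72 to 0.41) as deposited and -0.28 (95% CI -0.64 to 0.08) after scaling. Without vehicle SP mouse 2 or 3 or G108 HP mouse 4 the difference on SP as deposited passed (adjusted p = 0.0347 to 0.0443, limma). The sign on SP thus depended on the scale.

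**Figure D2:**
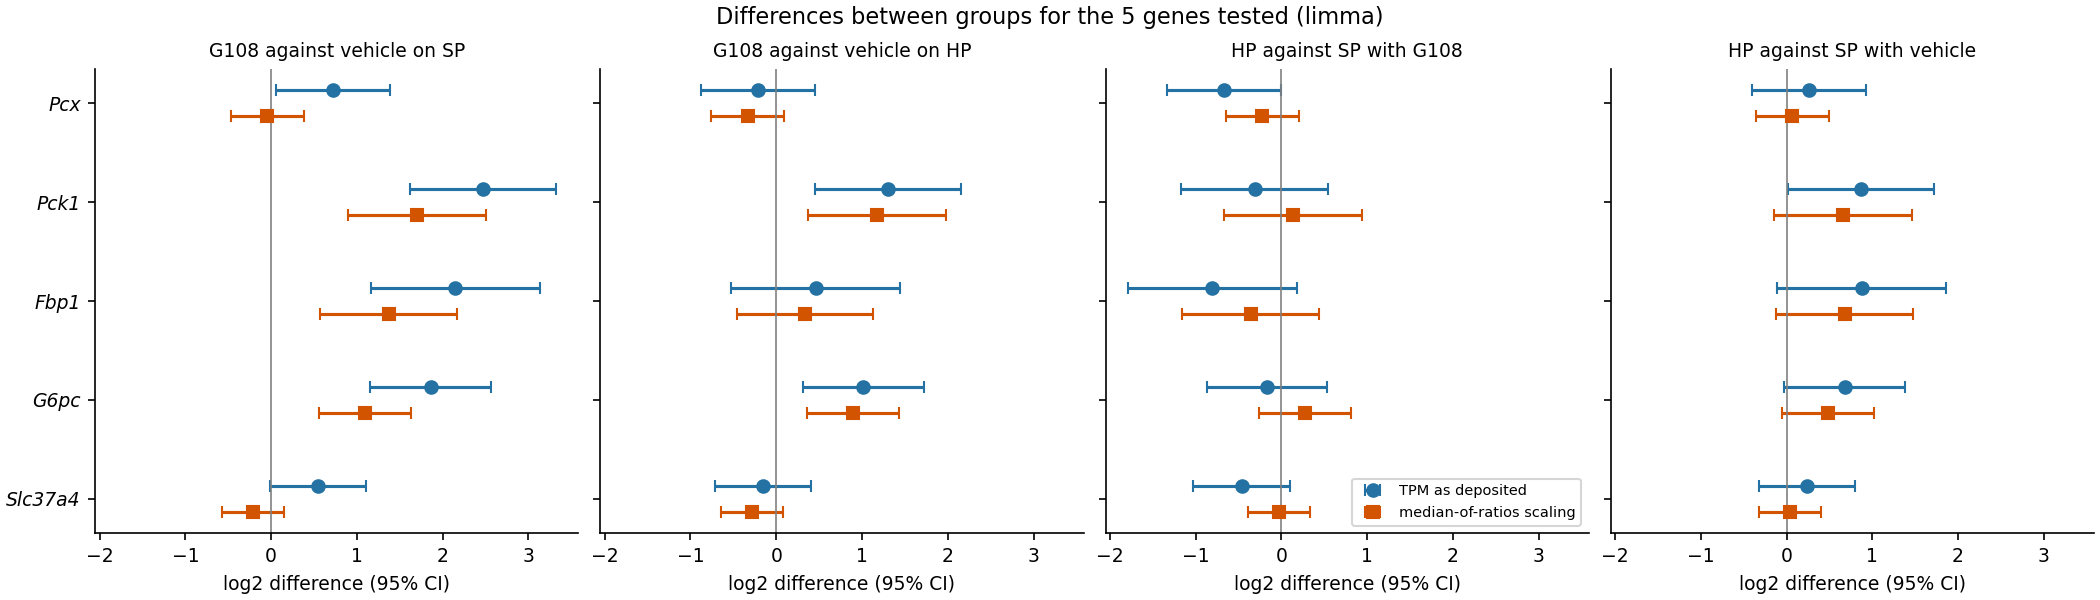
Log2 differences of group means with 95% confidence intervals from limma, in 1 panel per comparison, for TPM as deposited (blue circles) and after median-of-ratios scaling (orange squares), with Pck2 left out because its mean was under 1 TPM. Intervals for Pck1 and G6pc lie above 0 in both comparisons of G108 with vehicle on both scales, and those for Pcx and Slc37a4 include 0 after scaling.

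The ratio of a pair of genes within a library does not depend on the scale. G6pc to Slc37a4 and Pck1 to Pck2 were compared between groups in 8 two-sided exact permutation tests on log2 ratios, with 0.0286 as the smallest p that 4 mice against 4 allow. The p-values were adjusted over a family of 12 tests. The smallest adjusted p was 0.0571, so 0 of the 8 passed by this test, with 3 at an unadjusted p under 0.05. With that smallest p, no ratio could pass alone, however well its groups were separated. Passing depended on how many of the 12 tests reached the smallest p. G6pc to Slc37a4 was 1.17, 1.37, 0.769 and 0.939 in mice 1 to 4 with vehicle on SP and 1.87, 1.84, 3.47 and 3.83 with G108 on SP. On HP it was 2.03, 1.53, 1.23 and 1.05 with vehicle and 2.18, 3.55, 4.59 and 3.05 with G108. The groups did not overlap on either diet, and the ratio was 2.51-fold higher with G108 on SP and 2.28-fold higher on HP (exact permutation p = 0.0286 and adjusted p = 0.0571 for both, n = 4 against 4). In 8 of 8 mice given G108 the ratio was above that of any mouse given vehicle on the same diet, though neither difference passed adjustment. How many other pairs of genes were separated in this way was not counted. After scaling, the difference on SP was at the 99.3 percentile of all genes tested for G6pc and at the 20.8 percentile for Slc37a4.

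Pck1 to Pck2 was 1.77-fold higher with G108 on HP (exact permutation p = 0.0286, n = 4 against 4) and 2.69-fold higher on SP with overlapping mice (exact permutation p = 0.114, n = 4 against 4). Its spread with vehicle on SP, from 142 to 1389, came with that of Pck1 itself.

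**Figure D3:**
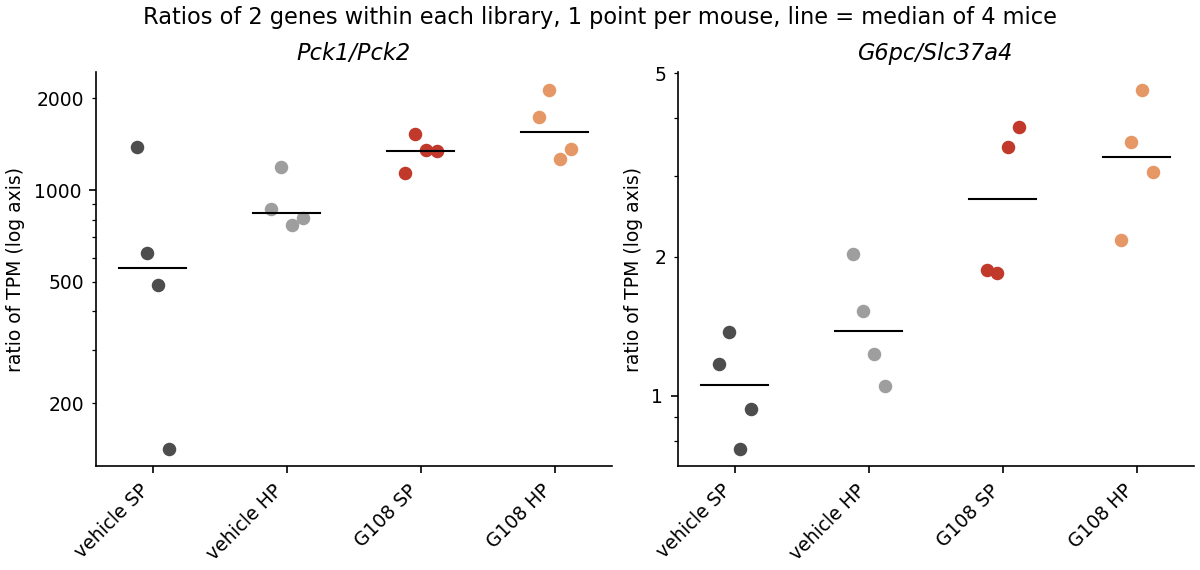
Ratios of TPM of 2 genes within a library on a log axis, with 1 point per mouse and a line at the median of 4 mice. Mice given G108 lie above mice given vehicle on the same diet for G6pc to Slc37a4 on both diets and for Pck1 to Pck2 on HP, and overlap with them for Pck1 to Pck2 on SP.

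Mice of the same group differed in how the members moved together. Deviations from group means after scaling were compared for the 15 pairs of the 6 genes over 16 mice, with 100000 permutations within groups. Fbp1 and Pcx deviated together, with r = 0.668 (permutation p = 0.00181, adjusted p = 0.0272) and rho = 0.694 (permutation p = 0.00341, adjusted p = 0.0512), and r was 0.656 without the 2 mice farthest from the median for Fbp1. It was the only pair of the 15 to pass for r, and no pair passed when vehicle SP mouse 2 or 3, vehicle HP mouse 1 or any one of the G108 HP mice was left out. Slc37a4 and Pcx had r = 0.650 (permutation p = 0.0234, adjusted p = 0.176) and rho = 0.668 (permutation p = 0.0165, adjusted p = 0.124), which did not pass. As deposited r was 0.879 for this pair (permutation p = 6.3e-04, adjusted p = 0.0047), which passed. Pck1 and G6pc, the members with the clearest response to G108, had r = 0.0955 (permutation p = 0.701). Pck1 and Fbp1 had r = 0.574 (permutation p = 0.277), which fell to 0.0166 without the 2 mice farthest from the median for Pck1. After scaling this r thus rested on those mice. As deposited r was 0.706 (permutation p = 0.0172, adjusted p = 0.0819), and 0.571 with 2 mice left out by the same rule. Libraries share depth and composition across genes, and the part of these in the correlations was not tested.

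**Figure D4:**
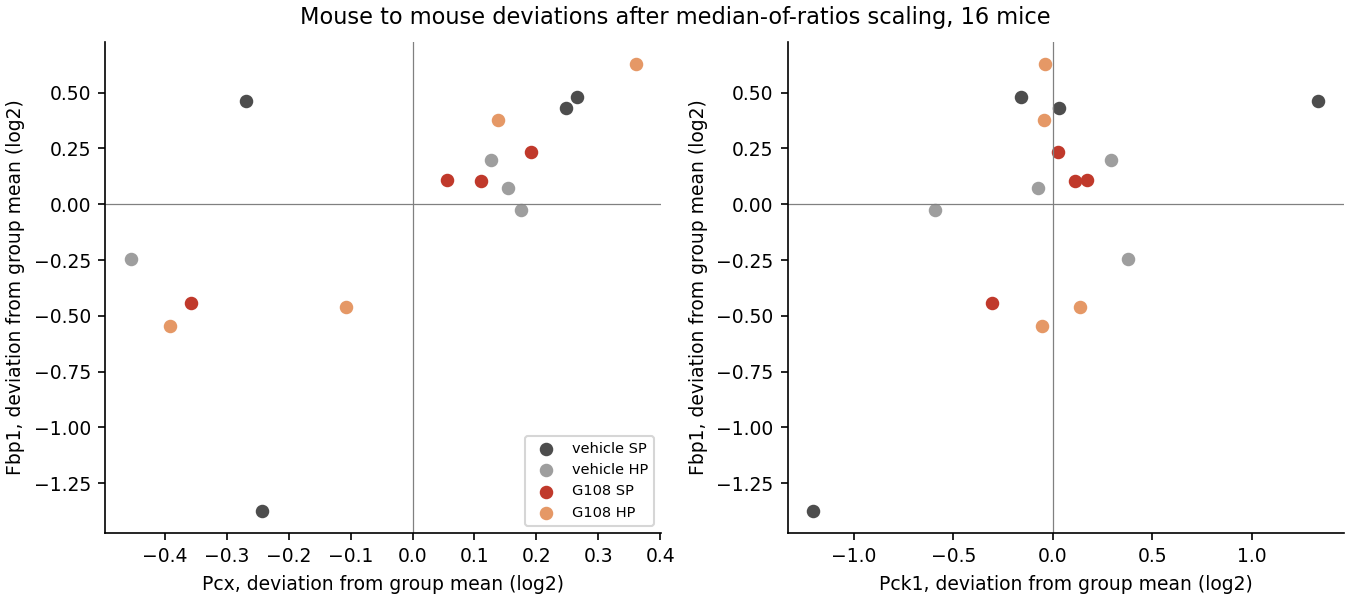
Deviation of each mouse from its group mean on the log2 scale after median-of-ratios scaling, for Fbp1 against Pcx (left) and Fbp1 against Pck1 (right), with colours for the 4 groups. The left panel has r = 0.668 over 16 mice, and in the right panel r is 0.574 with all mice and 0.0166 without the 2 mice farthest from the median for Pck1.

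The genes whose scaled levels ran most like those of a member over the 16 libraries are given by Pearson's r, as a description with no test. Pck1 ran most like Fh1 (fumarate hydratase, 0.971), Hgd (homogentisate dioxygenase of tyrosine breakdown, 0.968) and Ndufaf6 (0.964). G6pc ran most like Sgk1 (a hormone-responsive kinase, 0.914), Gtf2e1 (0.907) and Mapkapk2 (0.889). Fbp1 ran most like Atp5b (the beta subunit of ATP synthase, 0.981), Mesd (0.970) and Tufm (the mitochondrial elongation factor Tu, 0.963). Pcx ran most like Minpp1 (0.958), Pcsk6 (0.957) and Cpox (0.956), and Slc37a4 most like Slco1b2 (a hepatocyte uptake transporter, 0.880), Plpp3 (0.871) and AC102159.1 (0.858). No gene of the 6 was in the nearest 3 of another.

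The rest of the pathway was described from 6 lists. The 7 genes for steps shared with glycolysis, such as Tpi1, Pgk1, Pgam1 and Eno1, were all called higher with G108 on SP as deposited. So were 77% of all genes tested. Their median log2 difference was 1.20 against 0.60 for all genes. After scaling 0 of 7 were called by limma, where 1.33% of all genes were called higher. At an unadjusted p under 0.05, 4 of 7 were higher (17.7% of all genes in either direction), and the median was 0.44 against -0.0082. On HP 0 of 7 were called by limma on either scale, beside 1.11% of all genes as deposited and 1.22% after scaling. At an unadjusted p under 0.05 there were 0 of 7, beside 11.9% and 11.3%. Pgk1, which encodes phosphoglycerate kinase, differed by 0.63 on SP after scaling.

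Of 16 tested genes that bring substrates into the pathway (17 listed), 15 were called higher with G108 on SP as deposited and 2 after scaling, beside 77% and 1.33% of all genes. The latter were Got1, the cytosolic aspartate aminotransferase, with a scaled log2 difference of 2.24 (adjusted p = 4.81e-04, limma), and Sds, the serine dehydratase, with 1.19 (adjusted p = 0.0413, limma). Got1 averaged 33.1 ± 14.9 TPM with vehicle and 260 ± 69.4 TPM with G108 on SP (SD, n = 4), and 82.8 ± 16.2 and 175 ± 74.1 TPM on HP (SD, n = 4). On HP Sds was called as deposited (1.14, adjusted p = 0.0384, limma) but not after scaling (1.02, adjusted p = 0.128, limma).

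For 7 genes of the opposing steps of glycolysis, 4 were called higher with G108 on SP as deposited, a share below the 77% of all genes. After scaling 0 of these 7 were called by limma, where 1.33% of all genes were called higher, and their median was -0.086. At an unadjusted p under 0.05, 2 were higher and 2 lower, beside 17.7% of all genes in either direction. Of 6 tested genes for glucose exit and glycogen breakdown (7 listed), 3 were called higher on SP as deposited, again a share below that of all genes. After scaling 0 of the 6 were called by limma, beside the same 1.33%, and the median was -0.051. At an unadjusted p under 0.05, beside the same 17.7%, 1 was lower (Phka2, a phosphorylase kinase subunit, named after its value was seen, with -0.40). Of the 6 isoenzymes and relatives of the members, only Slc37a3 and G6pc3 reached the minimum level, while Fbp2, G6pc2, Slc37a1 and Slc37a2 did not. Slc37a3 was called higher on SP as deposited (0.80, adjusted p = 0.00166, limma) and not after scaling (0.31, adjusted p = 0.158, limma), and G6pc3 was not called on either scale.

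Of 17 tested genes of transcriptional control (18 listed), 16 were called higher with G108 on SP as deposited and 3 after scaling, beside 77% and 1.33% of all genes. On HP 2 were called higher as deposited and 3 after scaling, beside 0.819% and 0.642% of all genes. The 3 called after scaling were the same on both diets: Sik1, a cAMP-induced kinase, Ppargc1a, a coactivator of gluconeogenic genes, and Klf15, a factor for amino acid use. Their scaled differences on SP were 1.58 (adjusted p = 0.0132, limma), 0.89 (adjusted p = 0.00274, limma) and 0.50 (adjusted p = 0.0171, limma). On HP they were 1.47 (adjusted p = 0.0370, limma), 0.66 (adjusted p = 0.0337, limma) and 0.47 (adjusted p = 0.0414, limma). Nr4a1, an immediate early gene of the cAMP response, was called on SP as deposited (1.77, adjusted p = 0.00141, limma) and not after scaling (1.25, adjusted p = 0.106, limma). No gene of the 6 lists was called by limma in either comparison of HP with SP or in the interaction, on either scale.

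**Figure D5:**
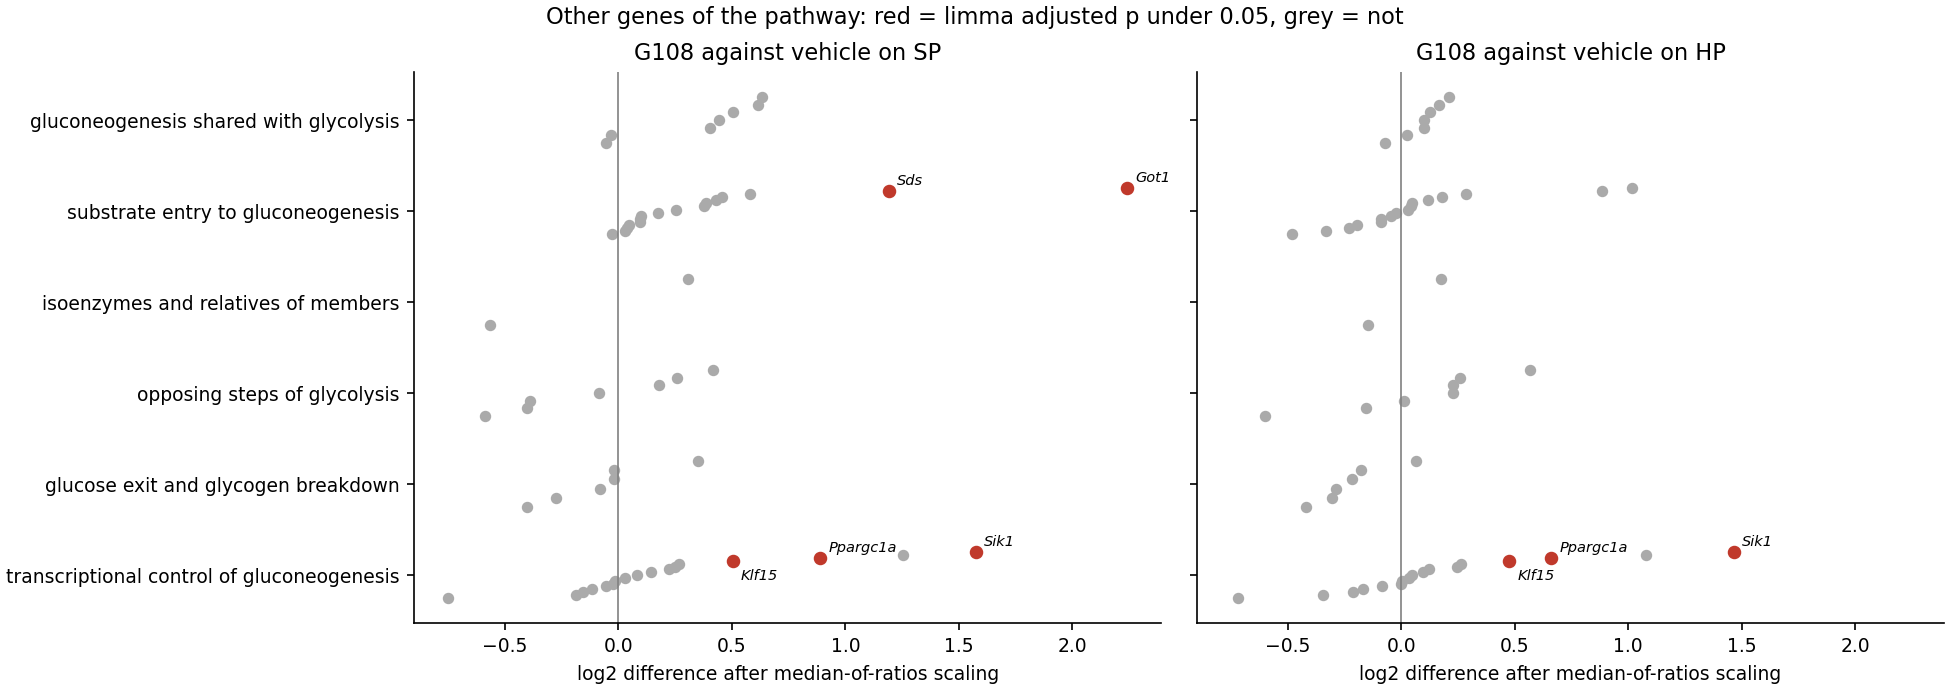
Each point is 1 tested gene of the list named at the left, placed by its log2 difference between G108 and vehicle on SP (left) or HP (right) after median-of-ratios scaling, in red and named where limma's adjusted p is under 0.05 and grey elsewhere. Got1 lies farthest to the right on SP at 2.24, and Sik1, Ppargc1a and Klf15 are red on both diets.

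The summed TPM of 8 periportal hepatocyte markers was 765 to 1526 with vehicle on SP and 2542 to 4427 with G108 on SP, and 1620 to 2045 with vehicle on HP and 2196 to 4458 with G108 on HP. All 8 were above a mean of 1 TPM, and their median log2 difference on SP was 1.26 as deposited and 0.49 after scaling. Most of the sum came from Ass1 and Sds, themselves genes of amino acid use, with means of 1034 and 2046 TPM for Ass1 and 231 and 490 TPM for Sds in mice given vehicle and G108 on HP. On HP the mean was lower with G108 for Cyp2f2 (195 and 142 TPM), Pigr (165 and 131 TPM) and Ctsc (3.87 and 3.26 TPM), and the median log2 difference of the 8 was 0.13, against 0.09 for all genes. The sum of the 10 hepatocyte markers was 18845 to 40159 with vehicle and 41779 to 62557 with G108 on SP, and overlapped on HP at 29963 to 42877 and 26088 to 49164. Their median log2 difference on SP was 0.85 as deposited, against 0.60 for all genes, and 0.083 after scaling, against -0.0082. The sum of 8 pericentral markers overlapped on both diets. It was 1579 to 3685 with vehicle and 3660 to 4300 with G108 on SP, and 2446 to 3848 and 1918 to 4060 on HP. Most of the sum came from Cyp2e1, with means of 1892 TPM with vehicle and 2356 TPM with G108 on SP. The median log2 difference of the 7 tested was 0.61 on SP as deposited and -0.16 after scaling. After scaling 3 of these 7 were above 0, with 2 called higher and 0 lower by limma, beside 1.33% of all genes called higher. The mean of Oat was 262 TPM with vehicle and 1061 TPM with G108 on SP. The sum of 8 Kupffer cell and macrophage markers was 31.8 to 49.8 with vehicle and 29.4 to 111 with G108 on SP, and that of 8 blood cell markers 606 to 2107 and 947 to 1378. The part of these markers, or of the Mup and mitochondrial shares, in the differences of the 6 genes was not tested.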

How the data were processed

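The authors checked reads with FastQC 0.11.8, aligned them to GRCm38 with HISAT2 2.0.5, counted reads per gene with featureCounts and deposited TPM, computed from counts and exon lengths, in 1 table of 16 libraries. Whether counting used strand is not given in the sources used here. Their own comparisons used DESeq2 1.36.0 on read counts, which were not used here. Symbols, spans and exon lengths came from GENCODE for GRCm38 (55227 of 55487 identifiers matched). Of the 6 members, 5 passed the mean TPM minimum of 1. Genes passing it (11839) were tested on log2(TPM + 1) with limma 3.58.1 in R 4.3.3, with 1 mean per group, an intensity trend and Benjamini-Hochberg adjustment, in tests whose p-values reflect the spread between mice. Median-of-ratios factors came from 11591 genes.

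Depth was recovered from the deposited TPM, since 98.8% of 138216 values under 20 reads lay within 0.02 of a whole read, and limits precision by counting error only. Whole reads were tested with limma's voom. The model and the permutation test were checked on simulated data. Replicates correlated at r of 0.929 to 0.989 and none was a duplicate. Promoters came from RefSeq for GRCm38.p6, and all 6 members matched.

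The members, lists and tests were chosen with earlier results of these data known. Named list genes are up to 4 per list and comparison with the largest called differences, genes called after scaling, and for likeness the nearest 3 to each member. Alternatives were other pseudocounts, filters and scalings, voom, only the groups compared, a replicate block and each library left out. 1 listed gene, left out of its list's counts, and the 4 ratio tests that use it, counted among the 12, are not reported here.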

Additional observations from a re-analysis of the deposited data

Results flagged for a closer look

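In 5 of the 60 sets of 4 mice that were checked (6 genes in 4 groups on both scales, and ratios of 2 genes), 1 mouse stood apart from the other 3 by more than Dixon's critical value for 4 samples, the gap as a share of the whole range. Chance gives about 1 in 20. All 5 were scaled levels, which were only part of the 60 sets, so the share flagged among them was above 5 of 60. The scaled level of Pck1 in 1 G108 HP mouse was 1052, with the nearest at 932. That of Pck2 in 1 vehicle SP mouse was 0.812, with the nearest at 0.488. G6pc in 1 vehicle SP mouse was at 65.7, with the nearest at 42.2. Fbp1 in vehicle SP mouse 4 was at 75.1, with the nearest at 265, and this mouse also had the lowest Pck1 of all 16. Pcx in 1 vehicle HP mouse was at 41.1, with the nearest at 62.1.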

How the results depend on the processing

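For G108 against vehicle on SP the count of members called fell from 4 of 5 to 2 with median-of-ratios scaling, beside 77% and 1.33% of all genes called higher. It fell to 2 with TPM rescaled without mitochondrial and Mup genes, to 2 with voom and to 1 with the replicate block and median-of-ratios scaling. Shares of all genes for the rescaling, voom and the block are not given here, so those counts have no background beside them. Leaving out 1 library at a time gave 3 to 5 as deposited and 0 to 2 after scaling. The counts ranged likewise from 0 to 1 for G108 on HP, 0 to 2 for HP against SP with G108, 0 to 3 for the interaction and 0 to 3 for any difference among groups. For most of these runs the share of all genes called is not given here, so the ranges are not a result about the members. The 2 and the 3 calls of the diet comparison and the interaction came without G108 HP mouse 4, as deposited, where 42.6% and 43.9% of all genes were called, against 0% with all mice, so these counts are near the background. The difference of Pck1, G6pc and Fbp1 on SP stayed above 0 in all these settings. For Slc37a4 on SP the sign turned under median-of-ratios scaling (-0.21), with the block added (-0.21), in voom (-0.22) and in rescaled TPM (-0.15). For Pcx on SP it turned to -0.043, -0.043 and -0.047 in the first 3 of these. For HP against SP with G108, Pck1 turned to 0.14 in the same 3, and G6pc to 0.28, 0.28, 0.30 and, rescaled, 0.13. For Pck2 scaling with no filter turned HP against SP with vehicle to -0.066 and the interaction to 0.026. Over both scales, leaving out single libraries gave log2 ranges that reached both signs. On SP these were -0.34 to 0.69 for Slc37a4 and -0.13 to 0.91 for Pcx, and on HP -0.40 to 0.021 and -0.49 to 0.0026. For HP against SP with G108 they were -0.49 to 0.19 for Pck1, -0.39 to 0.45 for G6pc and -0.68 to 0.068 for Slc37a4. For HP against SP with vehicle they were -0.084 to 0.40 for Slc37a4 and -0.021 to 0.46 for Pcx, and for the interaction of Slc37a4 -0.92 to 0.058. The cause of these changes was not tested. Of the ratios 7 of 12 passed with a pseudocount of 1, and 0 to 9 without single mice, where only leaving out vehicle SP mouse 1 gave 9. The ratio of Pck1 to Pck2 for HP against SP with G108 turned to -0.078 with that pseudocount. Of the correlated pairs 2 passed with TPM as deposited (Fbp1 with Pcx and Slc37a4 with Pcx), and 0 to 1 after scaling without single mice.

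Mouse numbers did not pair the mice. Deviations of same-numbered mice correlated at r of -0.567 to 0.529, over 0.1 in 8 of 24 pairs, and 4 of 16 libraries correlated best with their own number. With the replicate block alone 4 of 5 members were called on SP, as without it, and 0 on HP. Shares of all genes called with the block are not given here. With the block and scaling G6pc on SP had an adjusted p of 0.0654 in limma, and 1 member was called for any difference among the groups.

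Pck2 had 63 to 182 reads per library, a counting error of 7.41 to 12.6%, and a coefficient of variation between mice of 16.7 to 26.4%. The other 5 genes had at least 2176 reads, a counting error of at most 2.14%, against a variation between mice of at least 8.27%.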
